A study of Mus musculus with 6 samples.

Results

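The subcutaneous fat of Kdm4b knockout (KO) and wild-type (WT) mice was compared on the 2 arrays whose titles name that depot, out of 6 arrays in all. The study asked which genes accompany the obesity of mice that lack Kdm4b, and also arrayed epididymal and brown fat, with 1 array per depot and genotype. The KO mice lacked Kdm4b in the whole body. Mice of both genotypes were males of 2 months, kept at room temperature on a chow diet and fasted for 6 hours before collection. The number of mice behind each array, the deleted exon and any sharing of animals between depots are unstated in the labels.

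White fat cells store triglyceride, make part of their own fatty acid and sterol, release fatty acid on fasting, and secrete leptin and other hormones. Kdm4b is a nuclear enzyme that removes methyl groups from lysine 9 of histone H3. Inguinal subcutaneous fat also holds a lymph node, lies next to skin and body wall muscle, and can take on beige cells with the heat-producing protein Ucp1. Dissected fat therefore carries RNA of those neighbours, and in bulk RNA fewer cells of a type and less RNA per cell cannot be told apart.

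Each value was an Affymetrix probe set signal on a linear scale. Signals under 63 were set to 63, a floor near the 40th percentile of probe sets, and the log2 difference was KO minus WT for the brightest probe set of each gene. With 1 array per genotype there was no replicate and no test, so the spread between mice was not measured. The only internal error was that between probe sets of a gene, whose log2 differences had an SD of 0.32 over 15243 probe sets of 5681 genes. Of 18194 genes, 13883 were above the floor on at least 1 of the arrays, so a gene high in 1 genotype alone was also kept. Of these, 308 were at least 2-fold higher in KO, which is 2.22%, and 104 were at least 2-fold lower, which is 0.749%. The genes just inside the higher limit were Prrg4 and Spo11, and those just outside were Gp5 and Pnpla3. Just inside the lower limit lay Fbxl7 and Zfas1, and just outside Rgs16 and Ccr9.

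The excess of genes higher in KO sat among dim probe sets. Of the 308 higher genes, 109 had a WT signal at or under the floor, and of the 104 lower genes, 20 had a KO signal there. Where both arrays reached at least 2 times the floor, 76 genes were at least 2-fold higher and 54 lower, and where both reached 8 times the floor, 18 were higher and 20 lower. The KO array had 13611 genes above the floor and the WT array 12754. The higher share of the 2-fold genes was 74.8% as deposited, 63.6% after quantile normalization and 50% after centring each array on its median. Median centring also moved the median difference of all genes to -0.12, against 0.04 as deposited, so list medians are read against those values. Among 2-fold genes with several probe sets, 80 of 123 (65.0%) had all of them on 1 side of 0, against 3011 of 6487 measured genes (46.4%). The ratio of 3′ to 5′ control probe sets was 0.79 in KO and 0.92 in WT for Gapdh, and 1.53 in KO and 1.86 in WT for Actb. For Pcx it was 21.9 in KO and 27.0 in WT, while 18S rRNA went the other way, with 1.07 in KO and 0.78 in WT.

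**Figure D1:**
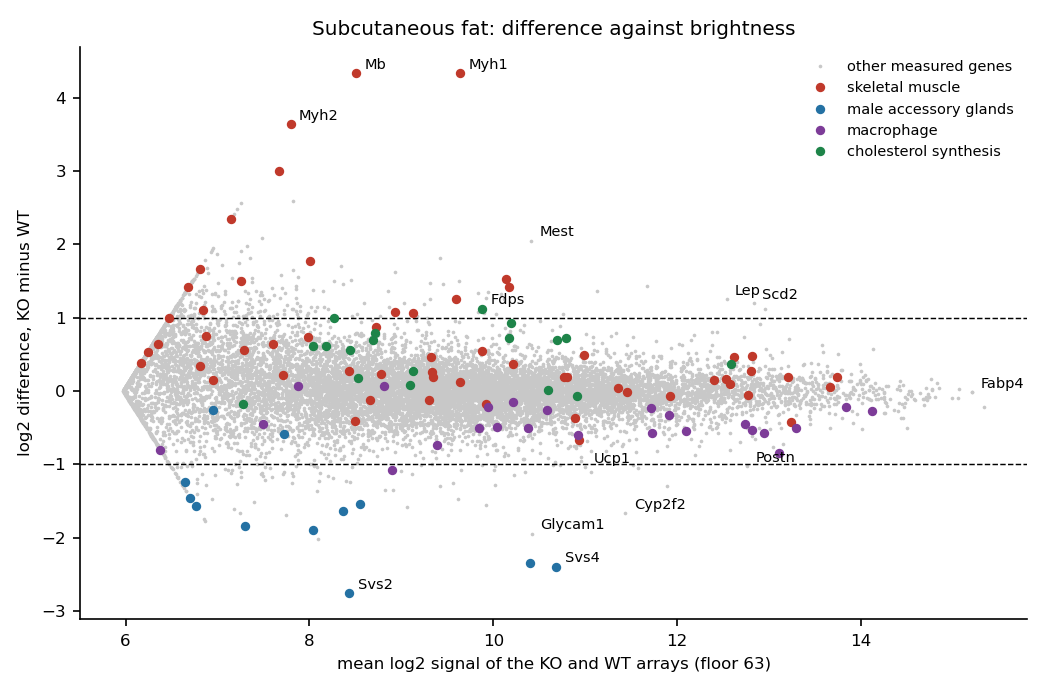
Each point is a gene, placed by the mean log2 signal of the KO and WT arrays and by the log2 difference of KO minus WT, with dashed lines at 2-fold. Muscle genes reach 4.33 above 0, the male gland genes all lie below 0, and the widest scatter of unmarked genes is at low signal.

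Kdm4b itself had a signal of 157 in KO against 272 in WT, a log2 difference of -0.80 from its 1 probe set. It was also lower in KO epididymal fat (-0.27) and KO brown fat (-0.50). No source used here places the probe set inside or outside the deleted part. Of its relatives, Kdm4c differed by -0.35 and Kdm4a by 0.14. Of 20 measured histone demethylases, 7 were higher and 13 lower, where 54.6% of all measured genes were higher and 45.4% lower, with a median of -0.08. Phf8, a demethylase of histone H3 lysine 9 and H4 lysine 20, stood apart with signals of 1436 in KO and 913 in WT, and its other probe set was higher by 0.44.

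Most genes that define a fat cell had much the same signal on both arrays. Adiponectin (Adipoq) had signals of 26704 in KO and 27392 in WT, and Fabp4, the fatty acid carrier of fat cells, had signals of 37638 in KO and 38171 in WT. The droplet protein Cidec and the lipoprotein lipase gene Lpl differed by 0.12 and -0.08, and the fatty acid receptor Cd36 by -0.01. Of 28 measured adipocyte identity genes, from 32 listed, 14 were higher and 14 lower, with a median of 0.01, and their summed signal was 331042 in KO and 323886 in WT. Within the list the master regulator Pparg differed by -0.28 and its partner Cebpa by -0.22, both within the SD between probe sets. Slc7a10, a neutral amino acid transporter of white fat cells, was lower, with signals of 2914 in KO and 4899.6 in WT, and Lgals12, a galectin of fat cells, differed by -0.49. The members past 2-fold were Lep and Lipf, a lipase, which had signals of 201 in KO and 44.2 in WT and was thus at least 3.19-fold higher.

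Genes linked to fat mass were higher in KO, Lep among them. Mest, an imprinted gene known in mice as a marker of fat expansion, had signals of 2769 in KO and 668 in WT, the largest difference of the secreted factor list at 2.05 on the log2 scale. Lep, which encodes the satiety hormone leptin, had signals of 9178 in KO and 3858 in WT. Sfrp5, a secreted Wnt inhibitor, had signals of 1575 in KO and 616 in WT, and its other probe set was higher by 0.95. Npr3, the clearance receptor that removes natriuretic peptides, had signals of 11686 in KO and 5377 in WT, and both other probe sets were higher by 1.19 and 1.42. Each of these 4 genes was more than 2-fold higher in KO.

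Further secreted factors lay on both sides. Inhbb, the activin B subunit that adipocytes make, had signals of 2294 in KO and 1240.4 in WT, while Fst, which encodes the activin inhibitor follistatin, had signals of 603 in KO and 1051 in WT. The probe sets of both genes held their sides, at 0.81 for the other Inhbb probe set and -1.19 for the other Fst probe set. Serpina12, which encodes vaspin, was at least 2.04-fold higher from a WT signal under the floor. Fgf1, a growth factor of fat remodelling, differed by 0.72, and both other probe sets were higher, by 0.36 or more. Igf1 differed by -0.58, and its other probe sets were lower by less, between -0.29 and -0.06. Of 29 secreted factors measured, 17 were higher and 12 lower, with a median of 0.07 that turned to -0.08 after median centring. In the imprinted and fat expansion list 9 of 14 were higher, with a median of 0.14 (-0.01 after centring). Peg3 and Igf2, imprinted as Mest is, differed by -0.11 and -0.08.

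The same genes were also measured in the other depots. In epididymal fat Mest had 6314 in KO and 2642 in WT, Lep 14421 in KO and 6063 in WT and Sfrp5 3295 in KO and 1131 in WT, all higher in KO. In brown fat the differences were 0.34 for Mest, 0.94 for Lep and 1.10 for Npr3, but -0.94 for Sfrp5. Differences between depots were not tested, since each rests on 1 array per genotype. Over all measured genes, 46.6% were higher in KO and 53.4% lower in epididymal fat, and 46.4% were higher and 53.6% lower in brown fat.

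**Figure D2:**
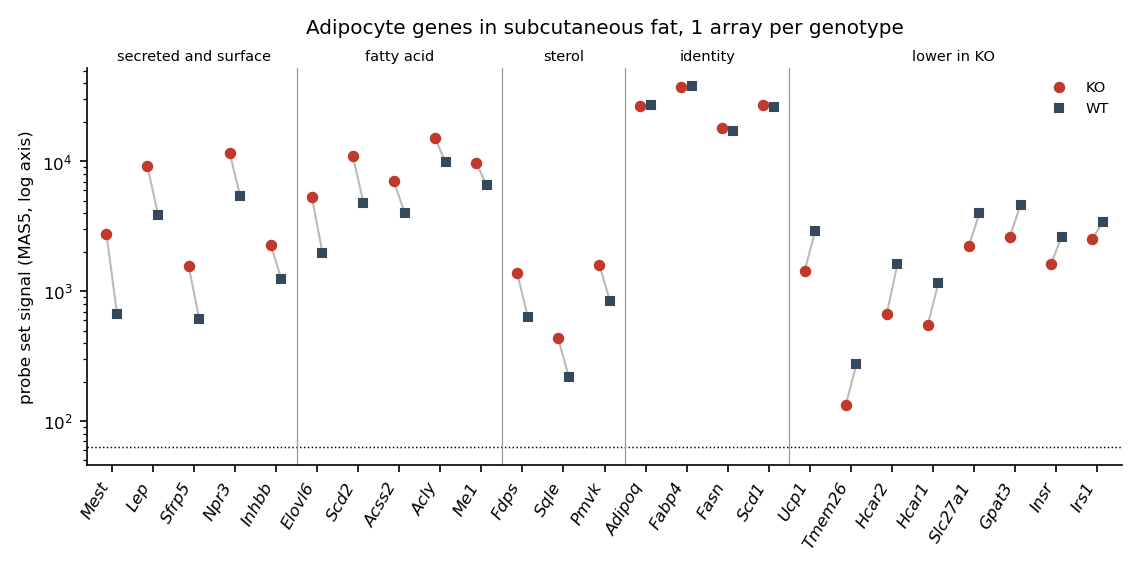
Probe set signal of adipocyte genes on a log axis, KO as circles to the left of WT squares, with the floor of 63 as a dotted line. Adipoq, Fabp4, Fasn and Scd1 overlap between genotypes, while Mest, Lep, Sfrp5, Elovl6 and Scd2 lie higher in KO and Ucp1, Hcar1 and Hcar2 lie lower.

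Fatty acid synthesis runs from citrate and acetate through acetyl-CoA to palmitate, which is then lengthened and desaturated. Some of its enzymes were higher in KO, and others differed by less than the SD between probe sets. Acly, which makes acetyl-CoA from citrate, had signals of 15213 in KO and 9835 in WT, and Acss2, which makes it from acetate, had signals of 7042 in KO and 4035 in WT. Me1, a source of NADPH, had signals of 9789 in KO and 6562 in WT. Among the elongases and desaturases, Elovl6 had signals of 5367 in KO and 1991 in WT, and Scd2 had signals of 11040.2 in KO and 4817 in WT. Their probe sets agreed in side, the others lying between 0.08 and 1.41 for Elovl6 and between 0.85 and 2.06 for Scd2.

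Fasn, the fatty acid synthase, had signals of 18064 in KO and 17256 in WT, and Scd1, the main desaturase of fat, had signals of 27073 in KO and 26400.2 in WT, differences of 0.07 and 0.04. Acaca, the first committed enzyme, differed by 0.17. Other elongases were close to 0, with Elovl5 at 0.08 and Elovl3 at -0.12, and so was the desaturase Fads1 at -0.03. Acacb, whose malonyl-CoA restrains fatty acid oxidation, was lower at -0.50, and Srebf1, the transcription factor of lipogenesis, at -0.35. In all, 21 of 26 measured lipogenesis genes were higher in KO and 5 lower. The list median was 0.27, and 3 of the 26 had a WT signal at or under the floor. After median centring it was 0.05, against -0.12 for all genes.

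Sterol synthesis enzymes were higher in KO along most of the pathway. Of 18 measured enzymes, from 21 listed, 16 were higher in KO, none had an array under the floor, and the median was 0.61 (0.46 after median centring). Early on, Hmgcs1, which makes HMG-CoA, differed by 0.37, with other probe sets between -0.35 and 0.92, and Mvk, the mevalonate kinase, by 0.62. In the isoprenoid steps, Pmvk, the phosphomevalonate kinase, had signals of 1610.4 in KO and 848 in WT, and the isomerase Idi1 had signals of 1481 in KO and 897 in WT. Fdps, which joins isoprene units into farnesyl diphosphate, had signals of 1392 in KO and 639.8 in WT and was the sole member past 2-fold.

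Most steps from squalene onward were higher as well. Sqle, the squalene epoxidase, had signals of 435 in KO and 219 in WT, and Lss, which closes the ring, had signals of 525 in KO and 325 in WT, with other Lss probe sets at 0.62 and 0.64. The demethylase Cyp51 had signals of 551 in KO and 319.7 in WT and Nsdhl, a dehydrogenase of a later demethylation, had signals of 2115 in KO and 1303 in WT. Sc5d, a late desaturase, had signals of 2273 in KO and 1383 in WT, but its other probe sets differed by 0.21 at most. The exceptions were Mvd at -0.18 and Ebp at -0.07, and Fdft1, the squalene synthase, was flat at 0.01. Regulators of the pathway were less uniform: 8 of 13 were higher, with a median of 0.09. Stard4, a sterol carrier, differed by 0.76 and the transcription factor Srebf2 by 0.42, while Insig1, which holds the sterol sensor in place, differed by 0.12 and Abca1, which exports cholesterol, by -0.38 with probe sets on both sides. The same enzyme list was higher in KO in epididymal fat, with 15 of 18 higher and a median of 0.35, and in brown fat, with 15 of 18 and 0.64.

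Because these enzymes lay together, the bases before their start sites are shown for 4 of them, 250 bases each, from RefSeq on GRCm38.p6. Capitals mark CCAAT or its reverse complement ATTGG, the box bound by NF-Y, which works beside SREBP at sterol genes. The windows are Pmvk (chr3:89454291-89454540, plus strand), Cyp51 (chr5:4104698-4104947, minus strand), Idi1 (chr13:8885356-8885605, plus strand) and Lss (chr10:76531355-76531604, plus strand). Pmvk has a second start in the table (chr3:89459321-89459570, plus strand), whose window holds no CCAAT.
Pmvk: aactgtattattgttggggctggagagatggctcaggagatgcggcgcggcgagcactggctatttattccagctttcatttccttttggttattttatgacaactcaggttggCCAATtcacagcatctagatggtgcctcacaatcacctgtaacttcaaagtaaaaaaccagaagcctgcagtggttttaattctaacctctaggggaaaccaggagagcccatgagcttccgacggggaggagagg
Cyp51: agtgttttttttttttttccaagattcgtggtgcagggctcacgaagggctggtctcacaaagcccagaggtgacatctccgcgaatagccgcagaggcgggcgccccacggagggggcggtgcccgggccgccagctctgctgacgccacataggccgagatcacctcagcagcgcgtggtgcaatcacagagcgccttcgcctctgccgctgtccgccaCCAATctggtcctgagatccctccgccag
Idi1: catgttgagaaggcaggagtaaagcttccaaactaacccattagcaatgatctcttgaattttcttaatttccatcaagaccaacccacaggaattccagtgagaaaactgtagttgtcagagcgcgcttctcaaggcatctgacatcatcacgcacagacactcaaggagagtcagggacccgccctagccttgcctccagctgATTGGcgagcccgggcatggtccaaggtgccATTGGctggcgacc
Lss: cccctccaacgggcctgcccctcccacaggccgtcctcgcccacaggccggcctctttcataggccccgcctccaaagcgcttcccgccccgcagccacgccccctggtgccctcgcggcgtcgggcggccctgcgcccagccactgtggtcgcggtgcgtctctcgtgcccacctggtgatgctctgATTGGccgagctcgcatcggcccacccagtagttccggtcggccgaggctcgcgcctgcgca
RefSeq entries were matched for 15 of the 18 measured enzymes, with 18 start sites in all. On either strand, CCAAT was found in 15 of those 18 windows (83.3%) and at some start of all 15 genes, against 33.8% of 32851 windows of the same length in the table. The letters TCACNCCAC, written for the sterol regulatory element, were found in 1 of the 18 windows (5.56%), that of Hmgcs1, against 1.05% of all windows. The genes with CCAAT included Mvd and Ebp, which were not higher in KO, and the match describes only the letters of these windows.

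Triglyceride assembly split by enzyme. Gpat3, which adds the first fatty acid to glycerol phosphate in fat, had signals of 2640.0 in KO and 4659 in WT, and Dgat1, which adds the last, had signals of 4606 in KO and 6528 in WT, with its other probe set at -0.58. Dgat2, which also adds the last fatty acid, differed by 0.21. Lpgat1, an acyltransferase, had signals of 8777 in KO and 5259 in WT, and its 3 other probe sets were higher by 0.65 to 0.78. Mogat2, which makes diglyceride by a separate route, had signals of 433 in KO and 200.4 in WT. Of 18 measured genes 10 were higher and 8 lower, with a median of 0.06. Gpam, the mitochondrial counterpart of Gpat3, differed by -0.43 with the other probe set at 0.44, so its side is uncertain.

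Receptors that set the rate of lipolysis differed more than the lipases. Hcar2, a receptor for ketone bodies and niacin, and Hcar1, a receptor for lactate, both slow lipolysis when bound, and both were lower in KO. Hcar2 had signals of 665 in KO and 1618 in WT and Hcar1 had signals of 552 in KO and 1166 in WT. Both were lower in KO in the other depots too, with differences of -0.79 and -1.11 in epididymal fat and of -0.85 and -0.99 in brown fat. The lipases Pnpla2 and Lipe differed by -0.23 and 0.11, and the lipase inhibitor G0s2 by -0.04. Fitm1, a droplet gene that is chiefly expressed in muscle, had signals of 257 in KO and 88.2 in WT. Of 20 genes of this list 11 were higher and 9 lower, with a median of 0.03.

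Fatty acid uptake and oxidation had list medians near 0, with exceptions. Slc27a2, a transport protein and acyl-CoA synthetase, had signals of 85.3 in KO and 269 in WT, the largest difference of the uptake list and the only one past 2-fold. Slc27a1, a fatty acid transport protein, had signals of 2244 in KO and 4001 in WT, with its other probe set at -0.55. Ehhadh, an enzyme of peroxisomal oxidation, had signals of 804 in KO and 1784 in WT, and was lower in epididymal fat (-0.60) but not brown fat (0.29). Of 26 measured oxidation genes 12 were higher and 14 lower, with a median of -0.01, and of 15 uptake genes 7 were higher and 8 lower, with a median of -0.01. The respiratory chain was slightly higher in KO, with 44 of 60 genes higher, a median of 0.06 and none past 2-fold. That median became -0.09 after median centring. The citric acid cycle's median of 0.07 became -0.08. Of 17 glycolysis genes 16 were higher, with a median of 0.27 (0.12 after centring), among them Hk1, Tpi1 and Gapdh, and Aldoc, dim in KO and under the floor in WT, past 2-fold. Glycolysis genes are also strong in skeletal muscle, whose genes were higher in KO as well, and the part of muscle in their difference was not tested.

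Beige and thermogenic genes lay on both sides. Ucp1 had signals of 1428 in KO and 2934 in WT, 2.06-fold lower in KO. Tmem26, a surface marker of beige cells, had signals of 132 in KO and 274 in WT, with its other probe set at -0.66, and Lhx8, a transcription factor of brown fat, had signals of 179 in KO and 319 in WT. Yet Cidea and Cox7a1, which mark thermogenic fat, were slightly higher at 0.32 and 0.33, near the SD between probe sets. Prdm16 and Ppargc1a differed by 0.04 and -0.13. Otop1, a proton channel enriched in brown fat, was higher with signals of 1284 in KO and 367 in WT from 1 probe set. Of 32 measured genes 16 were higher and 16 lower, with a median of -0.03. In brown fat itself Ucp1 differed by -0.13 and Otop1 by 0.27. Slc27a2, with the values above, is also a member, and Esrrg, an orphan nuclear receptor of oxidative tissue, was at least 2.83-fold higher. The largest value of the list, Hspb7 at least 5.92-fold higher, belongs to a small heat shock protein of muscle and heart, with a WT signal under the floor. Cox7a1 and Esrrg are also expressed in muscle, whose genes were higher in KO. The part of muscle in the differences of Cox7a1, Esrrg and Hspb7 was not tested.

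Of 19 measured insulin signalling genes, 12 were lower in KO and 7 higher, with a median of -0.21. The receptor Insr differed by -0.69, but its other probe sets reached 0.62 on the other side, so its side is uncertain. The adaptors Irs1 and Irs2, each with 1 probe set, had signals of 2518 in KO and 3404 in WT and signals of 286 in KO and 449 in WT. Grb14, an adaptor that binds and inhibits the insulin receptor, had signals of 3596 in KO and 1398 in WT. Pik3r1 differed by -0.32 and Akt2 by -0.25, and the glucose transporter Slc2a4 by 0.03.

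Several glucocorticoid-responsive genes were higher in KO. Fkbp5, a chaperone of the glucocorticoid receptor, had signals of 2130.1 in KO and 1198 in WT, with its other probe set at 0.79. Pnmt, the enzyme that makes adrenaline, differed by 0.93, the oxygen-sensing factor Hif3a by 0.75 and the metal-binding Mt2 by 0.76. Cdkn1a, the cell cycle inhibitor p21, had signals of 1504 in KO and 627 in WT, and its other probe set was higher by 0.75. Others of the list were not higher, such as Per1 at -0.21 and Errfi1 at -0.51. In all, 15 of 23 were higher, with a median of 0.25 (0.10 after median centring), against -0.05 in epididymal and -0.13 in brown fat. Of the clock genes, Cry1 had signals of 524 in KO and 254 in WT and Nfil3 had signals of 67.3 in KO and 133 in WT, the Nfil3 signal in KO lying near the floor, while Dbp, a clock output, differed by -0.25. The labels give no time of day for the collection, and its part in these genes was not tested.

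**Figure D3:**
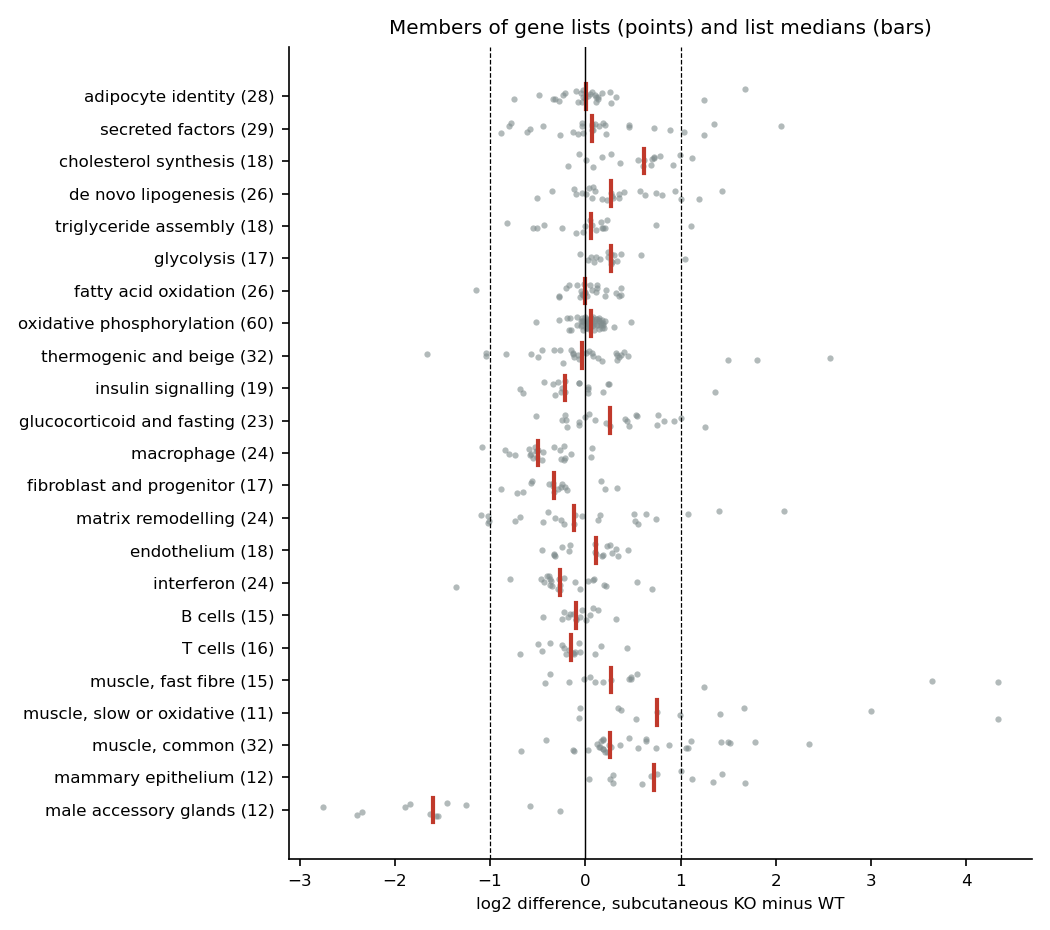
Each grey point is the log2 difference (KO minus WT) of 1 measured gene of a list, each red bar the list's median, with the number measured beside the name. The cholesterol synthesis bar lies at 0.61, the macrophage bar at -0.50 and the male gland bar at -1.60, while adipocyte identity, fatty acid oxidation and the thermogenic list lie within 0.04 of 0.

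Macrophage genes were lower in KO subcutaneous fat. Of 24 measured markers, from 25 listed, 22 were lower, with a median of -0.50 and a summed signal of 85461 in KO and 115531 in WT. Adgre1, which encodes the F4/80 surface protein, had signals of 1113 in KO and 1588 in WT, and Cd68, a lysosomal marker, had signals of 1571 in KO and 2375 in WT. Mrc1 and Clec10a, lectins of resident macrophages, had 3637 in KO and 5304 in WT and 2771 in KO and 4110.0 in WT. Fcgr1, an activating antibody receptor, had signals of 328 in KO and 695 in WT and was the member past 2-fold. The complement gene C1qa had signals of 5975 in KO and 8634 in WT. Csf1r, the receptor for the growth factor of macrophages, differed by -0.51, although 1 of its other probe sets was higher by 0.19. The chemokine Ccl2 and the integrin Itgax were the 2 that were not lower, at 0.07 and 0.06, both within the SD between probe sets.

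In epididymal fat 20 of the 24 macrophage genes were higher in KO, with a median of 0.23, and Ccl2 had 672 in KO and 295 in WT there. In brown fat 20 of 22 were lower, with a median of -0.33. Genes of the interferon response were lower in KO subcutaneous fat in 17 of 24 cases, with a median of -0.27, led by the antiviral genes Oasl2 (300.3 in KO and 768 in WT) and Oas2 (336 in KO and 582 in WT).

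Of the mast cell genes, 3 proteases were lower in KO. Cpa3 had signals of 1168 in KO and 2289 in WT, Mcpt4 had signals of 802 in KO and 1334 in WT and Cma1 had signals of 716 in KO and 1149.8 in WT, but Kit and Tpsb2, which also mark mast cells, differed by -0.10 and -0.04. Neutrophil genes lay on the other side: S100a8 had signals of 1451 in KO and 576 in WT, and S100a9 differed by 0.54. Ngp, a granule gene, had signals of 243 in KO and 66.5 in WT, close to the floor in WT. Rnase2a, an eosinophil ribonuclease, was at least 5.32-fold higher from a WT signal under the floor. Other eosinophil genes did not follow it, with Prg2, near the floor on both arrays, at 0.01 and Il5ra at -0.39. Camp and Ltf were above the floor in KO alone, with KO signals of 125 and 137. Lcn2, whose protein is stored in neutrophil granules and also made by epithelium, was at least 2.01-fold higher.

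Fibroblast and progenitor genes were lower as a group. Of 17 measured, 14 were lower, with a median of -0.32 and a summed signal of 73259.7 in KO and 86014 in WT. Pdgfra, the receptor that marks adipocyte progenitors, had signals of 2114 in KO and 3484 in WT, with its other probe sets at -0.70 and -0.49. Dpp4, a marker of early progenitors, had signals of 954 in KO and 1412 in WT, and all 3 other probe sets were lower. Fn1, fibronectin, had signals of 5885 in KO and 9236 in WT, and Sfrp4, a Wnt-binding protein, had signals of 667 in KO and 1236 in WT. In epididymal fat 11 of these 17 genes were higher in KO, with a median of 0.14. Among endothelial genes 11 of 18 were higher with a median of 0.11, or -0.04 after median centring.

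Matrix metalloproteinases were among the lower genes of the matrix remodelling list. Of 24 measured members, from 28 listed, 10 were higher and 14 lower, with a median of -0.11. Mmp2, a gelatinase, had signals of 2068 in KO and 4160.5 in WT, with its other probe set at -1.07. Mmp3 had signals of 1465 in KO and 3139.5 in WT, and Mmp14, which activates Mmp2, had signals of 1521 in KO and 2529 in WT, with all 3 Mmp14 probe sets lower. Mmp9, the other gelatinase, differed by -0.69, and the inhibitor Timp1 by -1.02. Postn, a matrix protein of wound and tumour stroma, had signals of 4875 in KO and 9921 in WT. Mmp2, Mmp9 and Mmp14 were lower in KO in all 3 depots, with Mmp2 differing by -0.75 in epididymal and -1.05 in brown fat, while Postn differed by 0.46 and -0.09. The ADAMTS proteases, which also cut the matrix, lay on the other side, with Adamts5 at 0.64, Adamts1 at 0.52 and Adamts4 at 0.14. Among collagen and crosslinking genes 12 of 26 were higher, with a median of -0.05, against 0.41 in epididymal fat. Col1a1 differed by -0.47 and Col4a1, of basement membrane, by 0.16. Within the matrix remodelling list, 3 genes stood on the opposite side past 2-fold. Tnfrsf12a, the receptor for the cytokine TWEAK, had signals of 339 in KO and 128 in WT and an agreeing probe set, Thbs1, thrombospondin, had signals of 239 in KO and 113 in WT, and Ncan, a proteoglycan best known in brain, was also higher. Macrophage and fibroblast markers were lower in the same sample, and their part in the matrix genes was not tested.

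Muscle genes were present on both arrays, and they differed by fibre type. Acta1, the skeletal actin, had signals of 14589 in KO and 12807 in WT, and Ckm, muscle creatine kinase, had signals of 6279 in KO and 5603 in WT. The fast troponins and myosin light chain were close on the 2 arrays: Tnnt3 differed by 0.10, Tnnc2 by 0.19 and Myl1 by 0.05. Myh4, the myosin of type IIb fibres, had signals of 8318 in KO and 11136 in WT, with its other probe set at -0.82. The myosins of type IIx and IIa fibres were far higher in KO. Myh1, the myosin of type IIx fibres, had signals of 3577 in KO and 178 in WT, 20.2-fold higher, and Myh2, that of type IIa fibres, was at least 12.4-fold higher, with a KO signal of 782. Mb, the oxygen store of oxidative fibres, had signals of 1637 in KO and 81.1 in WT. Mybpc1, a slow myosin-binding protein, had signals of 573 in KO and 71.8 in WT. The myosin heavy chain genes are close copies, and cross-hybridisation among their probe sets was not tested.

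Markers of slow type I fibres were dim on the KO array and dimmer on the WT array, where 5 of the 11 measured slow fibre genes were at or under the floor. Myl3 and Myl2, light chains of slow fibres, had WT signals under 63 and were at least 3.17-fold and 2.67-fold higher in KO. Myh7, the myosin of type I fibres, was also under 63 in WT and had a KO signal of 90.8, a difference of at least 0.53. Genes common to all fibres were mostly higher in KO. The mitochondrial subunit Cox6a2 had signals of 1909 in KO and 665 in WT, Tcap, which caps titin, had signals of 1892 in KO and 706 in WT, Nrap had signals of 476 in KO and 139 in WT, and Trim63, a muscle ubiquitin ligase, had signals of 808 in KO and 388 in WT. Lmod2, an actin nucleator, was at least 5.09-fold higher. Titin itself, Ttn, had signals of 1545 in KO and 2464 in WT with probe sets on both sides. Over the 3 muscle lists, 11 of 15 fast, 9 of 11 slow and 28 of 32 common genes were higher, with medians of 0.27, 0.75 and 0.26. The slow list's median rests on dim genes: its 2 members with both arrays at 2 times the floor, Atp2a2 and Tpm3, are also expressed outside muscle and had a median of -0.06. Of the 308 genes at least 2-fold higher in KO, 15 belonged to the muscle lists. These were 3 of 15 fast, 4 of 11 slow and 8 of 32 common genes, where 2.22% of all measured genes were at least 2-fold higher.

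Most muscle genes went the other way in brown fat, and the fast fibre genes did so in epididymal fat. In brown fat Acta1 had 159.6 in KO and 4420.3 in WT, and all 15 fast fibre genes were lower in KO, with a median of -2.74. In epididymal fat 14 of 15 were lower, with a median of -0.98. The other muscle lists differed by less there, with medians of -0.10 for the slow and -0.23 for the common list. Of these, 6 of 7 slow and 13 of 22 common genes were lower, where 53.4% of all measured epididymal genes were lower. Of the 308 genes at least 2-fold higher in KO subcutaneous fat, 32 were at least 2-fold lower in KO brown fat and 12 in KO epididymal fat, while 15 were at least 2-fold higher in KO brown fat and 32 in KO epididymal fat. Over all measured genes, 2.45% of brown fat genes and 1.44% of epididymal fat genes were at least 2-fold lower in KO. The shares at least 2-fold higher in those depots are not given here, so the 15 and 32 are counts without a background.

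**Figure D4:**
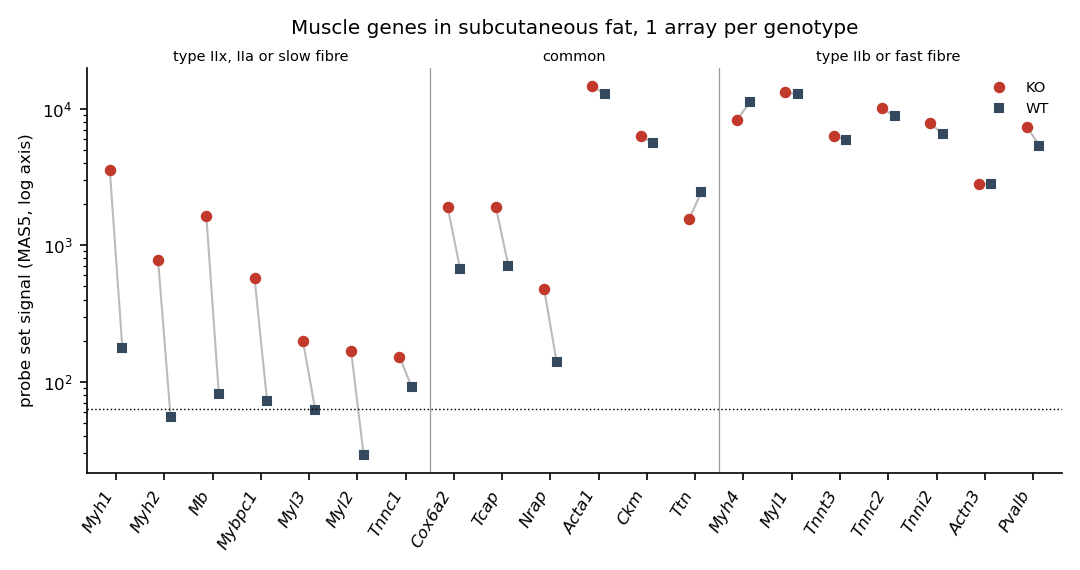
Probe set signal of skeletal muscle genes on a log axis in subcutaneous fat, KO circles left of WT squares, with the floor of 63 dotted. Myh1, Myh2, Mb and Mybpc1 are high in KO and near or under the floor or up to 178 in WT, while Acta1, Ckm and the fast fibre genes lie close together.

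Lymph node genes differed by little on the 2 arrays, but more of them were lower in KO than higher, where 45.4% of all measured genes were lower. Of 15 B cell genes 5 were higher and 10 lower, with a median of -0.10, and of 16 T cell genes 3 were higher and 13 lower, with a median of -0.15. Ms4a1, the B cell antigen CD20, had signals of 4862 in KO and 5199 in WT, and Cd3d, of the T cell receptor, had signals of 1841 in KO and 2174 in WT. The summed B cell signal was 23977 in KO and 25078 in WT. Of 9 genes of lymph node stroma and vessels 1 was higher and 8 lower, with a median of -0.16 (-0.37 after median centring). Glycam1, a ligand on the vessels by which lymphocytes enter nodes and also a milk protein, had signals of 698 in KO and 2687 in WT. Glycam1 was the only member past 2-fold, while the follicle chemokine Cxcl13 had signals of 4275 in KO and 5372 in WT. In epididymal fat Ms4a1 had 268 in KO and 409 in WT.

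Genes of male accessory glands were lower in KO without exception. Of 12 measured seminal vesicle, prostate and epididymal genes, from 21 listed, all 12 were lower and 10 past 2-fold, with a median of -1.60 and a summed signal of 2479 in KO and 10653 in WT. Svs4, a seminal vesicle secretory protein, had signals of 718 in KO and 3774 in WT, and Svs5, with 4 other probe sets that were all lower, had signals of 600.0 in KO and 3044 in WT. The other members past 2-fold, Svs2, Svs6, Pate4, Pate14, Ceacam10, Spink1, Sva and Spinkl, differed by -1.25 to -2.76, with Spink1 and Sva under the floor in KO. The corresponding list medians were -0.32 in epididymal fat and 0.27 in brown fat. Svs4 had 1151 in KO and 958 in WT in brown fat. The source of the gland transcripts in any depot was not tested.

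Epithelial genes were higher in KO at low signal. All 12 measured members of the mammary epithelium list, from 22 listed, were higher, but 9 had a WT signal at or under the floor, and the summed signal was 1680.0 in KO and 639 in WT. Epcam, an adhesion protein of epithelia, had signals of 333 in KO and 207 in WT, with its other probe set higher by 1.03. The keratins Krt18 and Krt8 had KO signals of 211 and 159.9, against WT signals of 66 and 56.6. The milk protein genes Csn2 and Csn3 had WT signals under 63 and KO signals of 77.1 and 170, so their differences are bounds.

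**Figure D5:**
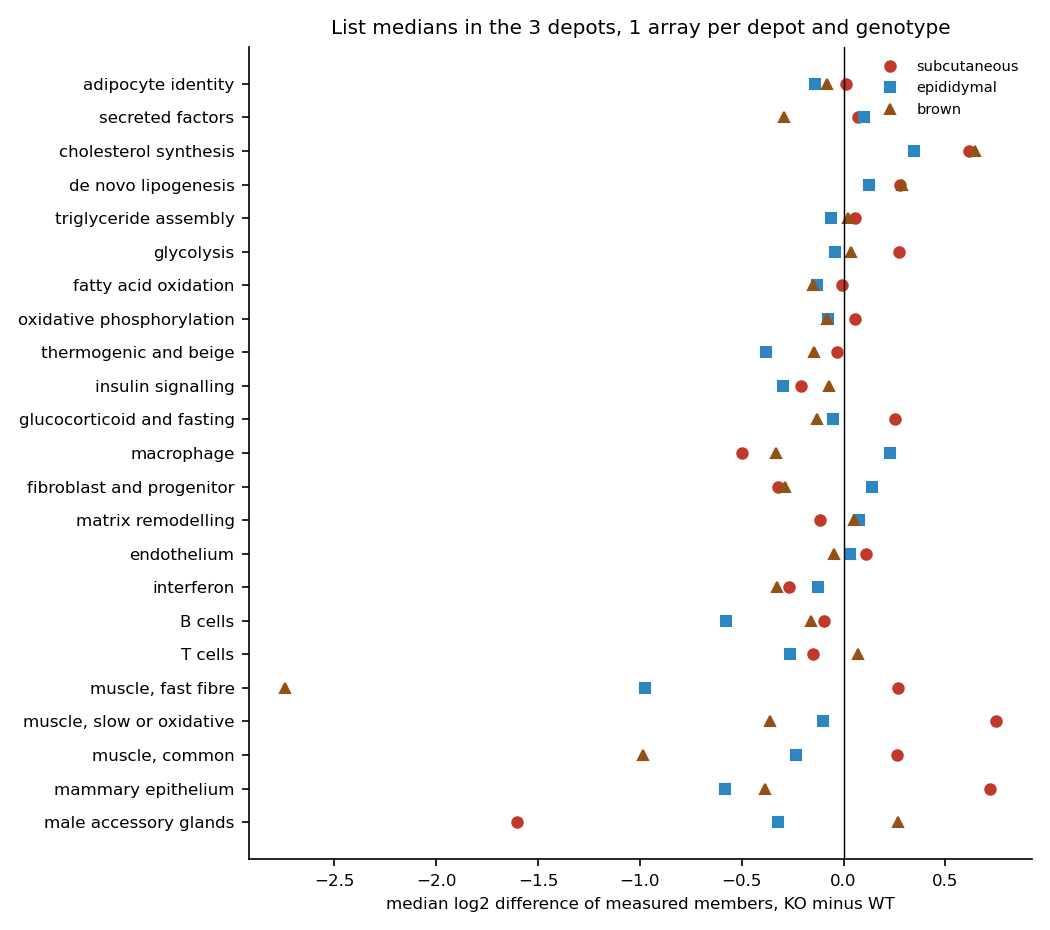
Median log2 difference (KO minus WT) of the measured members of each list in subcutaneous, epididymal and brown fat, 1 array per depot and genotype. Cholesterol synthesis lies above 0 in all 3 depots (0.61, 0.35 and 0.64), while the 3 muscle lists lie above 0 in subcutaneous fat and below 0 in the other depots.

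Outside the lists, genes with a signal of at least 8 times the floor on the brighter array and all probe sets on 1 side were read for further differences, and those named here were chosen after their values were seen. Slc1a3, a glutamate transporter, had signals of 2419 in KO and 5967 in WT, with all 6 probe sets lower, and was lower in epididymal (-1.37) and brown fat (-0.80). St6galnac5, a sialyltransferase, had signals of 565 in KO and 1664 in WT, with all 3 probe sets lower. Cd248, a stromal surface protein also called endosialin, had signals of 707 in KO and 1489.6 in WT, and Gulp1, an adaptor for the uptake of dying cells, had signals of 725 in KO and 1479 in WT. On the higher side, Kcnj15, a potassium channel, had signals of 1168 in KO and 424 in WT, with 3 agreeing probe sets. Ptger3, a prostaglandin E receptor that restrains lipolysis in fat cells, had signals of 2491 in KO and 1209 in WT, and was also higher in epididymal (0.80) and brown fat (0.85). Slc6a13, a transporter of GABA and taurine, had signals of 744 in KO and 289 in WT.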

How the data were processed

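Total RNA labelled with biotin was hybridised to 6 Affymetrix arrays, and the 2 of subcutaneous fat were analysed with the others as comparison. The deposited values are intensity values, 1 per probe set, which the authors made with MAS5 in Affymetrix Expression Console, per the submitters' processing notes. Software version: not given in the sources used here. Each array had a trimmed mean of 500, so overall brightness was equalised and a change in total RNA cannot be seen. Precision is limited by the number of arrays.

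Control probe sets were set aside. Of the other 45037, GEO's platform annotation gave 34945 a single gene symbol, which were used, 932 several and 9160 none. The brightest by mean log2 signal over the 6 arrays stood for each of 18194 genes. Intensities were floored at 63 and log2 taken, and genes with an array above the floor were measured. No test was used, since each group has 1 array, and the 44 gene lists are described by counts and medians. Genes for the text were drawn from the 15 largest differences each way past 2-fold with agreeing probe sets, the 5 largest of each list and its members past 2-fold, set genes such as Lep, and the 3 brightest of neighbouring tissues. Further list members and genes were named after their values were seen. The members and lists were chosen with earlier results of these data known. Python 3.11.15, numpy 2.4.6 and pandas 2.3.3 were used, and the counting was tested on simulated data.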

Additional observations from a re-analysis of the deposited data

Results flagged for a closer look

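Results are given here whose difference lay in opposite directions in subcutaneous fat and another depot, each by 2-fold for a gene. Each rests on 1 array per genotype, and the differences between depots were not tested. The fast muscle list, with a median of 0.27 in subcutaneous fat, had medians of -0.98 in epididymal and -2.74 in brown fat. In brown fat the slow and common muscle medians were -0.36 and -0.99. Myh1 differed by 4.33 in subcutaneous fat, by -3.02 in epididymal and by -4.34 in brown fat. Mb differed by 4.33 in subcutaneous fat, by -1.41 in epididymal and by -4.25 in brown fat, and Myh2 by -1.16 and -2.74 in those depots. Cox6a2 differed there by -1.30 and -2.17, and Tcap by -1.36 and -2.56. In brown fat, Actn2 differed by -1.45, Ckmt2 by -2.43, Csrp3 by -1.25, Mybpc1 by -2.30, Myhas by -1.56 and Myot by -2.39, all higher in KO subcutaneous fat. Myl3 differed by -1.07 in epididymal fat.

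The male gland list, at -1.60 in subcutaneous fat, had a median of 0.27 in brown fat, where Svs2 differed by 1.17. The mammary epithelium list, at 0.72, had medians of -0.58 in epididymal and -0.39 in brown fat. Lcn2 differed by -1.31 and the hair keratin gene Krtap12-1 by -1.88 in epididymal fat. The granule gene Ltf differed by -1.02 and the salivary gene Dcpp3 by -1.40 in brown fat.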

How the results depend on the processing

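The 2-fold counts depended on processing. The 308 higher genes became 199 after quantile normalization, 152 after median centring, 1308 and 69 with floors at the 20th and 60th percentiles, 192 with the mean of all probe sets, 1213 at 1.5-fold and 35 at 3-fold. The 104 lower genes became 324 and 48 with those floors, 527 at 1.5-fold and 15 at 3-fold. With both arrays at 2 times the floor, chosen after seeing the data, 76 were higher and 54 lower. The higher share, 74.8% as deposited, was 63.6% after quantile normalization, 50% after median centring, 59.0% with the 60th percentile floor and 58.5% with both arrays bright. Genes under a higher floor are no longer counted, which lowers the counts by construction. Of 348 list medians recomputed over 44 lists, 339 moved by less than the SD of probe sets. The slow muscle median, 0.75, was 1.47 and 0.22 with the floors, 1.21 without cross-hybridising probe sets, 1.21 as a mean and -0.061 over its 2 bright members. The fast muscle mean was 0.72. The salivary gland median, 0.24, was -0.26 over the 1 member without cross-hybridising probe sets. The granulocyte and mast cell median, 0.11, was 0.64 without them and -0.39 over bright members. The cause was not tested. Of 1574 recomputed values of 278 genes, 118 moved by more than that SD, and 27, of 20 genes, lay on the other side of 0. None of these genes was past 2-fold, and the largest reported difference among them was 0.51. No paired analysis was possible because each depot and genotype has 1 array and no replicate number. Dim probe sets, near the floor on either array, limit what can be read.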

Other observations

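Proliferation genes lay a little above the median of all genes in KO subcutaneous fat, with 15 of 23 higher and a median of 0.13 (-0.02 after median centring). Genes of the unfolded protein response and heat shock were lower in 18 of 27 cases, with a median of -0.11. Cryab, a small heat shock protein, was an exception with signals of 10518 in KO and 5597 in WT, and was higher in KO in epididymal (0.94) and brown fat (1.29) as well. Smooth muscle genes had a median of 0.20 and Schwann cell genes of 0.08.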
